A study of Astyanax mexicanus with 26 samples.

Results

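The regions described here are the places in the liver genome of the Mexican tetra, *Astyanax mexicanus*, at which H3K27me3 was listed in fish of the Tinaja cave, in river-dwelling surface fish, or in both. They were formed from all 99370 H3K27me3 peaks of Tinaja and all 97948 of surface by merging peaks that overlapped or touched, which gave 129736 regions. The whole series, with 3 marks in 3 morphs, held 833231 peaks that merge into 434967 regions within a mark. Each region was classed by the list or lists with a peak in it, as Tinaja only, surface only or both. The remaining lists (H3K27me3 of the Pachón cave morph, and H3K4me3 and H3K27ac of all morphs) took no part in the classes and were used to describe them.

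Both groups are natural morphs, for which the labels name no genotype, treatment, sex or exact age, and adult livers were taken from each. The Tinaja group had 2 H3K27me3 libraries and the surface group also had 2, lettered a and b and all carrying the library number 2399. Every immunoprecipitation used 200000 cells and 1 µg of antibody, after fixation in 1% formaldehyde for 15 min, and reads were 50 bases long. The background named for each library was total chromatin of the same morph and number. The labels do not say whether the 2 libraries of a morph came from different fish. For each morph and mark a single pooled list was deposited, so no spread between replicates can be set beside any difference, and no p-value is given. The read depth behind the lists is unknown, and the deposited score was 0 for every peak. Absence of a peak therefore means absence from a list. Exact binomial intervals at 95% are given for shares. They cover counting error only, and because neighbouring regions are not independent they are narrower than the true uncertainty. Positions are those of the deposited lists, whose starts count from 0, written here from 1. The sources used here do not name the genome build. No gene is placed on these coordinates, so the liver label was not checked against liver genes.

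H3K27me3 is the trimethylation of lysine 27 of histone H3, laid down by Polycomb repressive complex 2, whose catalytic subunit is EZH2 or EZH1. The mark is typical of genes kept silent in a differentiated tissue, among them developmental regulators that an adult liver does not use. It often covers CpG-rich promoters. There it can lie beside H3K4me3, a mark of promoters, in a combination called bivalent when both sit on the same chromatin. H3K27ac, a mark of active promoters and enhancers, modifies the same lysine, so a single histone tail cannot carry both H3K27 marks. In whole liver, marks listed at the same place may lie in different cells, and a mark in fewer cells cannot be told apart from a weaker mark in all of them.

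Close to equal numbers of regions were listed in a single morph on each side, and the class of both was the largest. Tinaja only held 34054 regions, which is 26.2% of all regions. Surface only held 31908 regions, which is 24.6%. Both morphs shared 63774 regions, which is 49.2% (95% interval 48.9 to 49.4). These 2 shares of single-list regions, 26.2% and 24.6%, are the background against which any subset is read below. Measured in bases, the shared part was of similar size. Of the 69.4 Mb covered by either list, 35.1 Mb or 50.6% was covered by both. In Tinaja, 66.4% of the listed bases were shared with surface, 9.36% were own bases at the edges or between the peaks of shared regions, and 24.3% lay in Tinaja only regions. In surface the same parts were 68.1%, 8.26% and 23.6%.

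Width separated shared from unshared peaks in the same way in both morphs. Of the Tinaja peaks of 200 to 249 bp, 30.5% met a surface peak (95% interval 29.1 to 31.8), and of the surface peaks of that width 34.8% met a Tinaja peak (33.4 to 36.1). In the class of 400 to 599 bp the shares were 73.4% for Tinaja and 74.9% for surface. From 2000 bp upward they were 98.97% (1531 of 1547 peaks) for Tinaja and 97.2% (1201 of 1236 peaks) for surface. Tinaja peaks were thus met less often than surface peaks below 600 bp and more often from 1000 bp upward. Single-list regions were accordingly narrow, with median widths of 340 bp in Tinaja only and 338 bp in surface only, against 536 bp in both. Regions of 1 kb or more numbered 235 in Tinaja only, 361 in surface only and 9471 in both. Among these wide regions Tinaja only made up 2.33% and surface only 3.59%, below the background of 26.2% and 24.6%. Merging itself widens regions of both, so the shares by width of the single peaks are the fairer comparison.

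**Figure D1:**
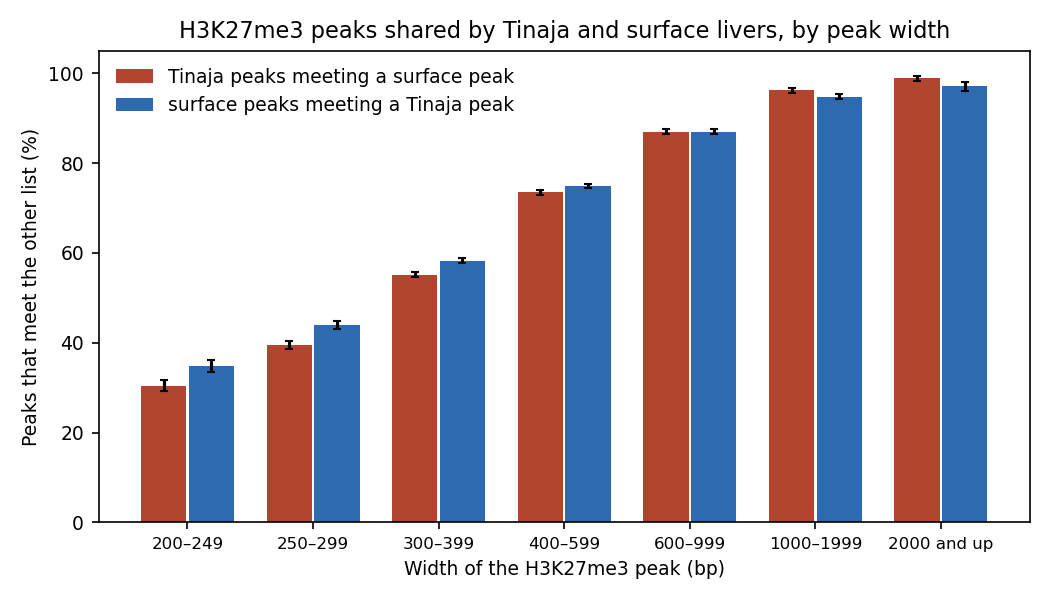
Share of H3K27me3 peaks (%, vertical axis) that overlap a peak of the other morph by 1 bp or more, by width of the peak in bp (horizontal axis), for Tinaja peaks and surface peaks. Bars are shares over all peaks of a width class and error bars are exact 95% binomial intervals; the shares climb to 98.97% for Tinaja and 97.2% for surface at 2000 bp and above.

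Unshared peaks did not as a rule lie just beside a peak of the other list. Of the 34055 Tinaja peaks that met no surface peak, 2.92% had one within 200 bp, 17.2% within 1 kb and 57.3% within 5 kb. For the 31909 unmet surface peaks the shares were 2.92%, 17.4% and 56.6%. The nearest peak of the other list was a median of 3884.5 bp away for Tinaja peaks and 3915 bp away for surface peaks. Farther than 10 kb, or on a sequence with no peak of the other list, were 22.4% of the unmet Tinaja peaks and 23.8% of the unmet surface peaks.

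Where both morphs had the mark, its extent was close to the same. Of the shared regions, 60527 (94.9%) held exactly 1 peak of each list. Matching edges of these pairs lay a median of 39 bp apart, and the shared part made up a median of 82.5% of their joint length. The median log2 ratio of Tinaja to surface covered length over all shared regions was 0.019 (interval of the median 0.017 to 0.022), and the middle 50% of regions ran from -0.17 to 0.22. Tinaja peaks covered 40.1 Mb of the shared regions and surface peaks 39.4 Mb. In regions of 2 kb and wider, Tinaja had the greater number of peaks in 16.3% and surface in 33.7%, so wide domains were more often broken into several peaks in the surface list, while the summed length there was 5.20 Mb in Tinaja and 5.03 Mb in surface.

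A small set of shared regions was unequal. Tinaja peaks were at least 2 times as long as surface peaks in 1289 regions, 2.02% of the regions of both. Surface peaks were at least 2 times as long in 1026 regions, 1.61% of them. The Pachón list, which had no part in choosing these regions, had a peak in 85.0% of the 1289 regions (82.96 to 86.9) and in 82.9% of the 1026 (80.5 to 85.2), near its share of 82.0% in the remaining shared regions. Among the regions with a Pachón peak, its covered length was nearer in ratio to that of Tinaja in 74.9% of the 1289 (72.2 to 77.5) and in 33.3% of the 1026 (30.1 to 36.5), against 51.99% of the remaining shared regions. A surface H3K4me3 peak was present at 18.4% of the regions longer in Tinaja and at 47.9% of those longer in surface, against 21.5% of the remaining shared regions. A Tinaja H3K4me3 peak was present at 67.7% of the regions longer in Tinaja and at 65.0% of those longer in surface, against 61.6% of the remaining ones. The unequal regions were also wider, with medians of 844 bp where longer in Tinaja and 922.5 bp where longer in surface, against 526 bp. The rule in part fixed this, because no peak of either list was narrower than 200 bp. Of the 13973 shared regions of 200 to 399 bp, 0 were unequal by this rule. The part of width in the Pachón and H3K4me3 shares was not tested.

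The 4 placed regions with the largest excess of Tinaja length were also long in Pachón and carried H3K4me3 over most of their length in both caves. On chromosome 3, between 40914034 and 40919589, H3K27me3 covered 5556 bp in Tinaja, 5310 bp in Pachón and 253 bp in surface. H3K4me3 covered 5547 bp there in Tinaja, 5477 bp in Pachón and 4557 bp in surface, so in surface fish the promoter mark covered most of the region and H3K27me3 a short piece of it. On chromosome 25, between 30542503 and 30547260, H3K27me3 covered 4758 bp in Tinaja, 4522 bp in Pachón and 1071 bp in surface, and H3K4me3 covered 4725 bp in Tinaja, 4728 bp in Pachón and 1397 bp in surface. On chromosome 3, between 53716830 and 53721796, 1 Tinaja peak of 4930 bp stood against 3 surface peaks of 2245 bp in sum, with 4516 bp in Pachón. On chromosome 15, between 28816889 and 28820432, the lengths were 3544 bp in Tinaja, 3542 bp in Pachón and 1108 bp in surface, with H3K4me3 over 3160 bp in Tinaja, 3161 bp in Pachón and 612 bp in surface. H3K27ac covered 492 to 1842 bp of these 4 regions in Tinaja and 0 bp in surface. In Pachón it covered 1187 bp of the first of them and 0 bp of the rest. The surface H3K27ac list was shorter, with 70089 peaks against 117125 in Tinaja. So was the surface H3K4me3 list, with 56323 peaks against 136219 in Tinaja.

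The 4 regions with the largest excess of surface length placed Pachón between the other morphs. On chromosome 2, between 5992524 and 5997983, H3K27me3 covered 461 bp in Tinaja, 4107 bp in Pachón and 5460 bp in surface. H3K4me3 covered 2529 bp there in Tinaja, 3919 bp in Pachón and 5109 bp in surface. On chromosome 14, between 2012273 and 2017568, H3K27me3 covered 1090 bp in Tinaja, 3626 bp in Pachón and 5296 bp in surface. On chromosome 20, between 19495284 and 19500695, the lengths were 1356 bp in Tinaja, 3755 bp in Pachón and 5412 bp in surface. On chromosome 16, between 40363635 and 40368789, they were 1296 bp in Tinaja, 4206 bp in Pachón and 5155 bp in surface. H3K4me3 had the order of H3K27me3 in all 4, with 2529 to 3756 bp in Tinaja, 3919 to 4830 bp in Pachón and 5109 to 5350 bp in surface, and none of the 4 carried an H3K27ac peak in any morph.

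**Figure D2:**
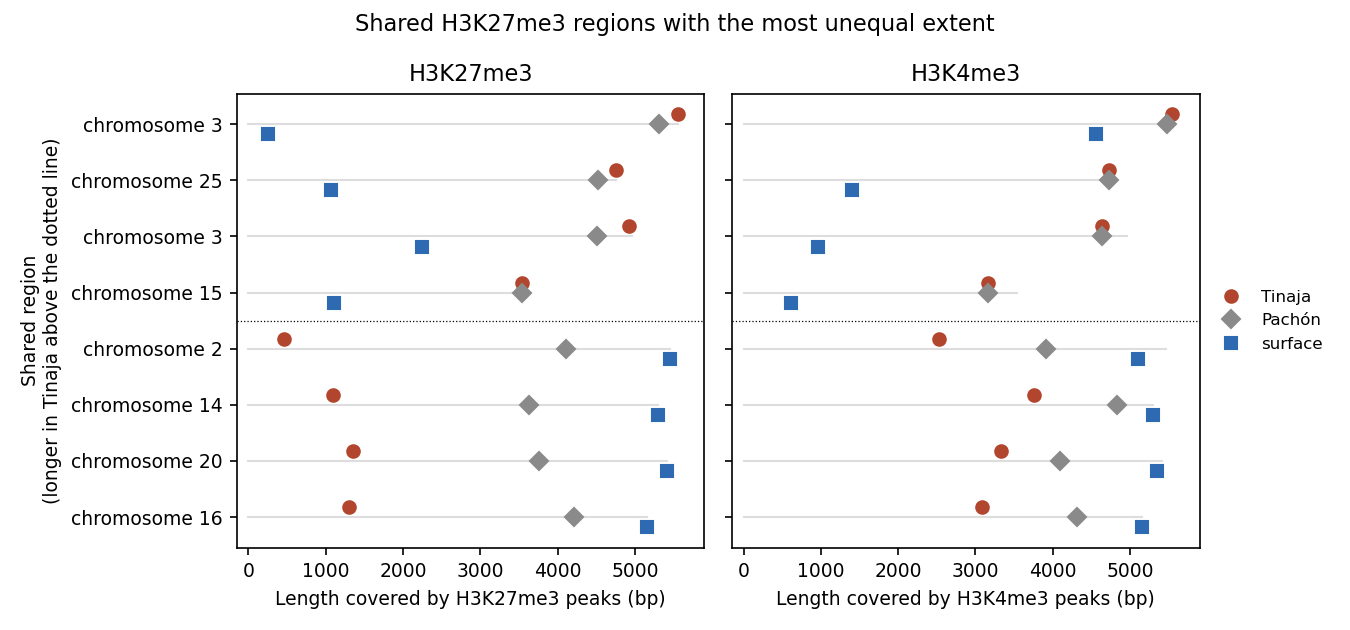
Length in bp covered by H3K27me3 peaks (left) and by H3K4me3 peaks (right) in Tinaja, Pachón and surface at the 4 placed shared regions with the largest Tinaja excess (above the dotted line) and the 4 with the largest surface excess (below it); each point is 1 deposited list, the grey line is the region's width and there are no replicates. In the upper 4 regions H3K27me3 covers 3544 to 5556 bp in Tinaja, 3542 to 5310 bp in Pachón and 253 to 2245 bp in surface, and in the lower 4 Pachón lies between Tinaja and surface.

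The widest placed regions of both morphs were covered almost fully by each. On chromosome 22, between 9949289 and 9957190, H3K27me3 covered 7190 bp in Tinaja and 7366 bp in surface, and H3K4me3 covered 6868 bp in Tinaja and 6101 bp in surface. On chromosome 20, between 13679271 and 13685601, H3K27me3 covered 6310 bp in Tinaja and 6331 bp in surface, and H3K4me3 covered 6326 bp in Tinaja and 6191 bp in surface. On chromosome 9, between 29935771 and 29942065, H3K27me3 covered 6150 bp in Tinaja and 6273 bp in surface, and H3K4me3 covered 6231 bp in Tinaja and 5420 bp in surface. On chromosome 16, between 18678692 and 18684816, 3 Tinaja peaks covered 5910 bp and 1 surface peak covered 6082 bp, while H3K4me3 covered 5934 bp in Tinaja and 3533 bp in surface. H3K4me3 was thus longer in Tinaja at all 4, most at the last, and H3K27ac covered 1519, 2630, 4019 and 1809 bp in Tinaja, against 0, 0, 0 and 232 bp in surface.

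On placed chromosomes, to which the regions named here are limited, the widest single-list regions carried H3K4me3 of the same morph. In the 4 widest placed Tinaja only regions, H3K4me3 of Tinaja covered between 94.7% and 100% of the width. The widest of these, on chromosome 3 between 59253822 and 59256422, held 2601 bp of Tinaja H3K27me3 and 2601 bp of Tinaja H3K4me3, and 0 bp of either mark in surface. Pachón resembled Tinaja there, with 2597 bp of H3K27me3 and 2546 bp of H3K4me3. On chromosome 13, between 2434438 and 2436813, H3K27me3 covered 2376 bp in Tinaja and 2376 bp in Pachón, and H3K4me3 covered 2249 bp in Tinaja and 2102 bp in Pachón, while surface again had 0 bp of both. On chromosome 5, between 30032723 and 30035169, H3K4me3 covered 2447 bp in Tinaja, 2446 bp in Pachón and 674 bp in surface, and H3K27me3 covered 2447 bp in Tinaja and 2380 bp in Pachón. On chromosome 14, between 5518775 and 5521325, surface had 0 bp of both marks, and Tinaja had 2551 bp of H3K27me3 and 2471 bp of H3K4me3. Pachón differed from Tinaja there, with 1771 bp of H3K27me3 and 470 bp of H3K4me3. As above, the surface H3K4me3 list was shorter than that of Tinaja.

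Among the 4 widest placed surface only regions the pattern was less uniform. On chromosome 18, between 9105770 and 9109037, surface had 3268 bp of H3K27me3 and Pachón 2929 bp, and H3K4me3 covered 1807 bp in Tinaja and 2856 bp in surface. On chromosome 6, between 32689550 and 32692438, Tinaja had no peak of any mark, and surface had 2889 bp of H3K27me3 and 694 bp of H3K4me3. On chromosome 24, between 44031086 and 44033899, all 3 marks were long in surface, with 2814 bp of H3K27me3, 2346 bp of H3K4me3 and 2632 bp of H3K27ac. Tinaja had 287 bp of H3K4me3 there, and Pachón had no peak of any mark. On chromosome 3, between 59837317 and 59840067, H3K4me3 covered 1628 bp in Tinaja and 2483 bp in surface, and H3K27ac covered 0 bp in Tinaja and 1029 bp in surface.

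Across the genome, surface H3K4me3 was more frequent at surface only than at Tinaja only regions, while for Tinaja H3K4me3 the difference was small and depended on the processing. At regions of Tinaja only, a Tinaja H3K4me3 peak was present at 31.99% (31.5 to 32.5) and a surface one at 5.15% (4.92 to 5.39). At regions of surface only, a Tinaja H3K4me3 peak was present at 28.7% (28.2 to 29.2) and a surface one at 12.8% (12.5 to 13.2). The shares of different morphs are not comparable, because the Tinaja H3K4me3 list had 136219 peaks from 3 libraries and the surface list 56323 from 2. The libraries carried the numbers 1934 and 2005 in Tinaja and 1930 in surface, so library number and morph cannot be told apart for this mark. Within a list, the difference for surface H3K4me3, Tinaja only minus surface only, was -7.68 percentage points (interval of the difference -8.11 to -7.24). For Tinaja H3K4me3 it was 3.30 points, and it was 1.30 points on placed chromosomes, 1.54 points with peaks up to 1 kb apart merged and 6.43 points with the wider 50% of each H3K27me3 list. With the Tinaja H3K4me3 list shortened to its 56323 widest peaks, the length of the surface list, the difference for Tinaja H3K4me3 changed sign. It was then -0.60 points (-1.07 to -0.13), with 10.1% at Tinaja only and 10.7% at surface only.

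Regions where both marks differed between the morphs showed the joint direction directly. Among Tinaja only regions, 9375 had H3K4me3 in Tinaja and not in surface, and 237 had it in surface and not in Tinaja. Among surface only regions, 6527 had it in Tinaja alone and 1467 in surface alone. The odds ratio for both marks to differ in the same direction was 8.89 (7.72 to 10.2), and 4.92 (4.43 to 5.48) with H3K4me3 lists of equal length. It rested mainly on H3K4me3 in surface alone, at 0.70% of Tinaja only and 4.60% of surface only regions. H3K4me3 in Tinaja alone differed less, at 27.5% of Tinaja only and 20.5% of surface only regions. Regions of 1 kb or wider were the clearest case. Of the 235 Tinaja only regions of that width, 149 had H3K4me3 in Tinaja alone and 2 in surface alone, and of the 361 surface only regions 33 had it in Tinaja alone and 121 in surface alone. With lists of equal length the same 4 counts were 124, 4, 23 and 154. Of all 10067 regions of that width, 32.9% had H3K4me3 in Tinaja alone and 2.32% in surface alone. The shares were 63.4% and 0.85% of Tinaja only regions, and 9.14% and 33.5% of surface only regions. Lists of equal length gave 27.4% and 4.91% of all, 52.8% and 1.70% of Tinaja only, and 6.37% and 42.7% of surface only regions. Over all widths, 32.5% of all regions had H3K4me3 in Tinaja alone and 1.91% in surface alone. Taken over all widths, both patterns were rarer at Tinaja only regions, at 27.5% and 0.70%. At surface only regions H3K4me3 in Tinaja alone was rarer, at 20.5%, and in surface alone more frequent, at 4.60%. With lists of equal length, H3K4me3 in Tinaja alone stood at 6.95% of Tinaja only and 5.08% of surface only regions, against 10.8% of all. H3K4me3 in surface alone then stood at 2.00% of Tinaja only and 7.21% of surface only regions, against 4.68% of all. At 1 kb or wider, as given above, H3K4me3 in Tinaja alone was instead more frequent at Tinaja only regions than among all. All regions include the shared ones, which were wider, and below 1 kb the part of width in these shares was not tested.

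Over all widths, shared regions carried more H3K4me3 than single-list ones, but shared regions were also wider. A Tinaja H3K4me3 peak was present at 61.8% of regions of both and a surface one at 21.8%. In regions of 300 to 399 bp the Tinaja share was 29.5% at Tinaja only, 28.3% at surface only and 33.8% at both. The surface share at that width was 4.09% at Tinaja only, 9.60% at surface only and 5.47% at both. In every width class, surface only regions met surface H3K4me3 more often than shared regions did, with overlapping intervals at 200 to 299 bp. At 400 to 599 bp the Tinaja share was 46.6% at Tinaja only, 39.6% at surface only and 56.7% at both. At 600 to 999 bp it was 62.1%, 47.4% and 76.0%. At 1 kb and wider the Tinaja share was 81.3% at Tinaja only, 45.7% at surface only and 92.9% at both. The surface share was 18.7% at Tinaja only, 70.1% at surface only and 61.0% at both.

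Taken over all widths, H3K27ac of Tinaja, Pachón and surface alike was more frequent at regions of surface only than at those of Tinaja only. A Tinaja H3K27ac peak was present at 15.8% of Tinaja only regions (15.4 to 16.2) and 18.2% of surface only regions (17.8 to 18.7), a difference of -2.46 points (-3.03 to -1.88). A surface H3K27ac peak was present at 4.03% of Tinaja only regions (3.83 to 4.25) and 8.29% of surface only regions (7.99 to 8.60), a difference of -4.25 points (-4.62 to -3.89). With H3K27ac lists of equal length the difference for the Tinaja list was -2.72 points. The Pachón lists had the same order, with H3K27ac at 9.34% of Tinaja only and 12.7% of surface only regions and H3K4me3 at 10.6% of Tinaja only and 12.6% of surface only regions. Over all regions, H3K27ac stood at 24.0% for the Tinaja list, 13.9% for the Pachón list and 7.23% for the surface list. At Tinaja only regions of 1 kb or wider, however, the Tinaja share was 22.98% (17.8 to 28.9), against 13.6% at surface only regions of that width (10.2 to 17.5). The Pachón share there was 10.6% (7.00 to 15.3) at Tinaja only and 8.59% (5.91 to 12.0) at surface only regions. The surface share was 6.81% (3.94 to 10.8) and 8.03% (5.45 to 11.3), so for both of these lists the intervals overlapped. The Tinaja H3K27ac list also came from 3 libraries, numbered 1934 and 2005, and the surface list from 2, numbered 1930.

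At some places the lysine was listed as methylated in a morph and acetylated in the other. Without regard to width, such places were rarer than the same H3K27ac pattern among all regions. Tinaja only H3K27me3 with H3K27ac of surface alone held 150 regions, or 0.44% of Tinaja only regions (0.37 to 0.52), against 0.81% of all regions with H3K27ac in surface alone. Surface only H3K27me3 with H3K27ac of Tinaja alone held 3720 regions, or 11.7% of surface only regions (11.3 to 12.0), against 17.6% of all regions with H3K27ac in Tinaja alone. The H3K27ac lists held 117125 peaks in Tinaja and 70089 in surface. With lists of equal length the numbers were 373 Tinaja only regions, or 1.10%, and 1678 surface only regions, or 5.26%, against 1.72% and 9.11% of all regions. H3K27ac in the same morph alone as H3K27me3 was found at 4150 Tinaja only regions, or 12.2%, against 17.6% of all regions. For surface it was found at 546 surface only regions, or 1.71%, against 0.81% of all. With lists of equal length the shares were 4.92% of Tinaja only, against 9.11% of all, and 2.96% of surface only, against 1.72% of all. For Tinaja, the same-morph pattern was thus also rarer than among all regions. All regions include the shared ones, which were wider, and below 1 kb the part of width in these shares was not tested. In regions of 300 to 399 bp, Tinaja H3K27ac, with or without surface H3K27ac, stood at 19.14% of surface only and 19.01% of shared regions. At 400 to 599 bp it stood at 21.9% of surface only and 28.8% of shared regions. At 1 kb and wider it stood at 13.6% of surface only and 45.7% of shared regions. In regions of 1 kb or wider, H3K27ac in Tinaja alone stood at 8.59% of surface only and 34.2% of all regions. It stood at 16.6% of Tinaja only regions of that width, so the same-morph pattern was below all regions there too. H3K27ac in surface alone stood at 0.43% of these Tinaja only regions (1 region), 3.05% of surface only and 0.74% of all. Of the 10067 regions of that width, 9471 were shared. The odds ratio for the same direction over all widths was 4.06 (3.37 to 4.89), or 2.53 (2.21 to 2.91) with lists of equal length. It rested mainly on H3K27ac in surface alone. H3K27ac in Tinaja alone stood at 12.2% of Tinaja only and 11.7% of surface only regions. With lists of equal length these shares were 4.92% and 5.26%, not in the same direction.

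**Figure D3:**
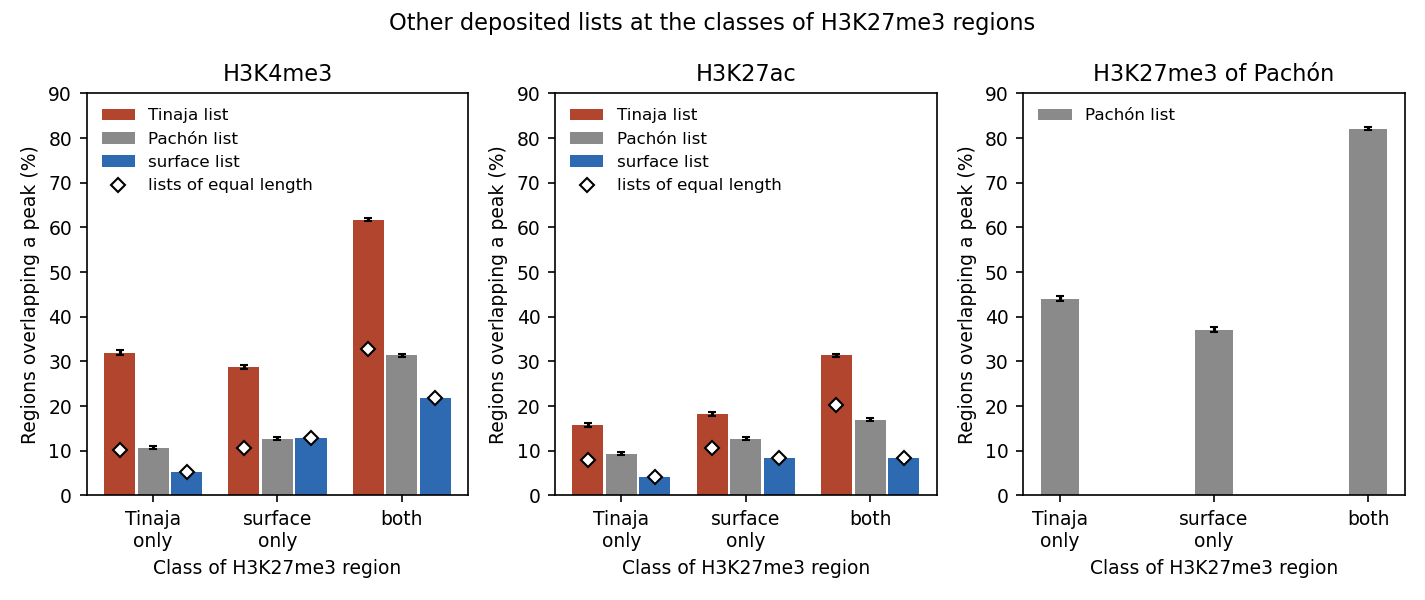
Share (%) of Tinaja only, surface only and shared H3K27me3 regions that overlap a peak of H3K4me3, of H3K27ac and of Pachón H3K27me3, with bars by morph of the list and exact 95% binomial intervals. Open diamonds are for Tinaja and surface lists of equal length, for which the Tinaja list was shortened and the surface list kept whole. Surface H3K4me3 stands at 5.15% of Tinaja only and 12.8% of surface only regions, and Pachón H3K27me3 at 44.1% and 37.1%.

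Most single-list regions carried no active mark in their own morph. Neither H3K4me3 nor H3K27ac of Tinaja was present at 62.5% of Tinaja only regions, and neither mark of surface at 82.8% of surface only regions. H3K4me3 without H3K27ac was the most frequent of the marked states on both sides, at 21.8% of Tinaja only regions for Tinaja marks and 8.94% of surface only regions for surface marks. Both active marks together stood at 10.2% of Tinaja only regions and 3.89% of surface only regions. At 92.3% of Tinaja only regions surface had neither active mark, and at 65.4% of surface only regions Tinaja had neither. The Tinaja and surface shares here are not comparable, because the Tinaja lists of both active marks were longer. Over all regions H3K4me3 stood at 45.8% for the Tinaja list and 15.2% for the surface list. H3K27ac stood at 24.0% of all regions for the Tinaja list and 7.23% for the surface list. The states of both active marks together were not counted over all regions. The shares of such states above therefore do not set single-list regions apart.

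Pachón H3K27me3, whose libraries also carried the number 2399 and whose list of 98198 peaks was of similar length, was found more often at Tinaja only than at surface only regions. The shares were 44.1% (43.6 to 44.6) and 37.1% (36.6 to 37.7), a difference of 6.94 points (6.19 to 7.69), and 82.1% of shared regions had a Pachón peak. The difference was present at every width class. At 200 to 299 bp the shares were 29.1% of Tinaja only and 25.9% of surface only regions. At 400 to 599 bp they were 57.2% of Tinaja only and 46.3% of surface only regions, and at 1 kb and wider 79.6% of Tinaja only and 68.4% of surface only regions. Tinaja only regions with Tinaja H3K4me3 had a Pachón H3K27me3 peak at 57.3% and those without at 37.9%. For surface only regions the shares were 44.7% with surface H3K4me3 and 36.0% without. The regions with H3K4me3 were wider, with medians of 391 against 321 bp in Tinaja only and 436 against 329 bp in surface only, and the part of width in this was not tested.

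Chromosomes differed little in the share of each class. Tinaja only ran from 24.1% on chromosome 3 to 30.8% on chromosome 21, against 26.2% of all regions, and surface only ran from 21.9% on chromosome 11 to 26.9% on chromosome 5, against 24.6%. Tinaja only exceeded surface only on 22 of the 25 placed chromosomes, and surface only exceeded Tinaja only on chromosomes 1, 5 and 23. The Tinaja list was the longer, with 99370 peaks against 97948, and the part of list length in this count was not tested. Chromosome 21 had the highest Tinaja only share, with 541 regions among 1757 (28.6 to 33.0), and the lowest share of regions of both, 44.1%. The next highest Tinaja only share was 28.4% on chromosome 22 (26.9 to 29.9), with an interval that overlapped. The 38345 regions on unplaced scaffolds had 26.2% Tinaja only and 24.8% surface only.

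**Figure D4:**
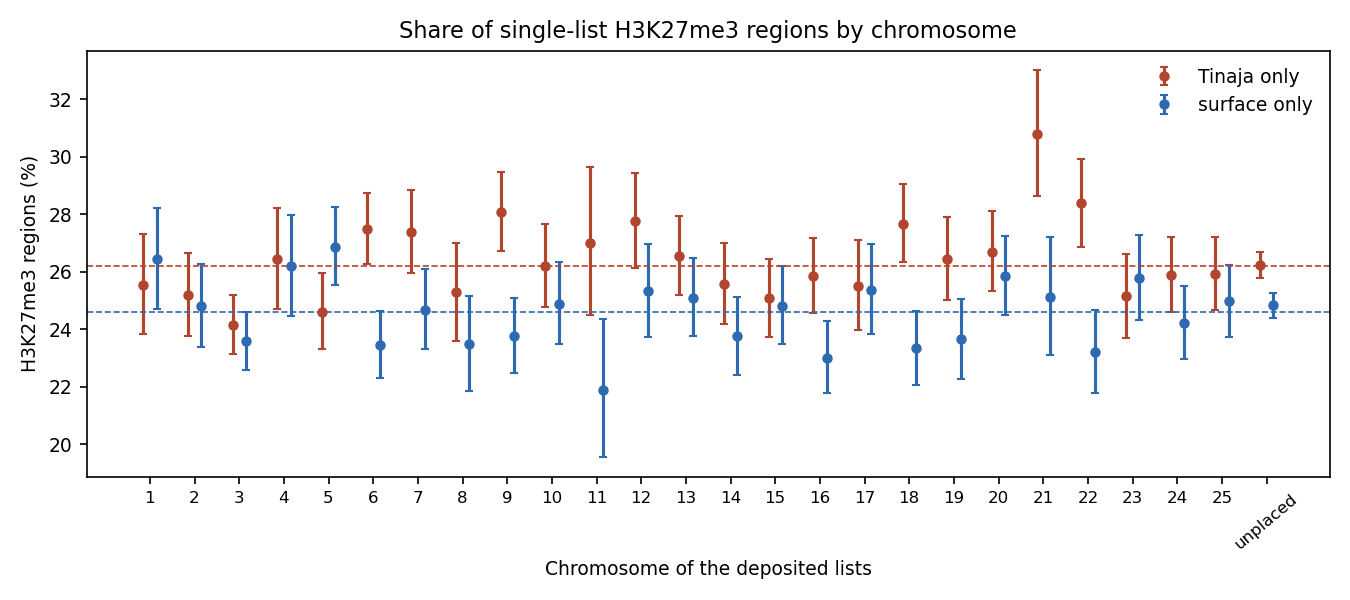
Share (%) of H3K27me3 regions that were Tinaja only and surface only on each placed chromosome and on the unplaced scaffolds together, with exact 95% binomial intervals; dashed lines give the shares over all regions, 26.2% and 24.6%, and the vertical axis does not start at 0. Chromosome 21 has the highest Tinaja only share, 30.8%.

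Single-list regions of the same morph lay next to each other more often than the genome share of their class. After a Tinaja only region the next region was Tinaja only in 33.5% of cases (33.0 to 34.0), against 26.2% of all regions, and surface only in 21.5%, against 24.6% of all. After a surface only region the next was surface only in 32.3% (31.8 to 32.8) and Tinaja only in 22.7%. Stretches of 10 or more regions of a single class numbered 4 for Tinaja only and 9 for surface only on placed chromosomes, and the longest held 13 regions for Tinaja only and 20 for surface only. In stretches of 5 or more, surface only regions carried Tinaja H3K4me3 at 37.2% and Tinaja H3K27ac at 26.8%, against 26.1% and 17.4% of surface only regions with other classes on both sides. Their surface H3K4me3 and surface H3K27ac shares were 15.8% and 11.6%, against 9.54% and 7.58%. Tinaja only regions in such stretches carried surface H3K4me3 at 4.17% and surface H3K27ac at 4.10%, against 5.25% and 4.61% of those with other classes on both sides. Their Tinaja H3K27ac share was 12.9% (11.3 to 14.6), against 17.0% (16.3 to 17.7). Their Tinaja H3K4me3 share was 29.3%, against 30.4%. Median widths in stretches were 350 bp for Tinaja only and 355 bp for surface only, against 333 and 330 bp.

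In the windows of 100 kb with the highest Tinaja only share, few or none of the Tinaja only regions met a surface peak of an active mark. That was near the genome share, as 92.3% of all Tinaja only regions met neither surface mark. Over all Tinaja only regions, Tinaja H3K4me3 stood at 31.99%, Tinaja H3K27ac at 15.8% and Pachón H3K27me3 at 44.1%. In the window of chromosome 6 from 3700001 to 3800000, 10 of 11 regions were Tinaja only. Of those 10, Pachón H3K27me3 met 2, Tinaja H3K4me3 met 2 and surface H3K4me3 met 1, and no list of the 3 morphs had an H3K27ac peak in the window. On chromosome 6 from 21200001 to 21300000, 9 of 10 regions were Tinaja only, with Pachón H3K27me3 at 5 of them, Tinaja H3K4me3 at 3, Tinaja H3K27ac at 3 and no active mark of surface at any. On chromosome 14 from 8800001 to 8900000, 9 of 10 regions were Tinaja only. None of these 9 met a Tinaja or surface peak of an active mark, although the window held 14 H3K27ac peaks in Tinaja and 17 in surface.

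The windows with the highest surface only share differed among themselves, and on chromosome 5 they held many active marks. On chromosome 5 from 20700001 to 20800000, 18 of 19 regions were surface only. Of these 18, Tinaja H3K4me3 met 10 and surface H3K4me3 met 4, Tinaja H3K27ac met 9 and surface H3K27ac met 2, and Pachón H3K27me3 met 13. The surface only stretch beginning in this window ran from 20752473 to 20866971 over 18 regions, of which Tinaja H3K4me3 met 12. On chromosome 5 from 16600001 to 16700000, 12 of 13 regions were surface only, and Tinaja H3K27ac met 11 of the 12, surface H3K27ac 6 and Pachón H3K27me3 2. On chromosome 4 from 9100001 to 9200000, 9 of 10 regions were surface only, with Pachón H3K27me3 at 6 of the 9 and H3K27ac of Tinaja and of surface at 1 each. Over all surface only regions, H3K4me3 stood at 28.7% for Tinaja and 12.8% for surface. H3K27ac stood at 18.2% of them for Tinaja and 8.29% for surface, and Pachón H3K27me3 at 37.1%. Over the 5732 windows with at least 8 regions, the median share was 25% for Tinaja only and 22.2% for surface only, and 37 windows of each kind reached 75%. The windows named are the extremes of these and give no test.

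**Figure D5:**
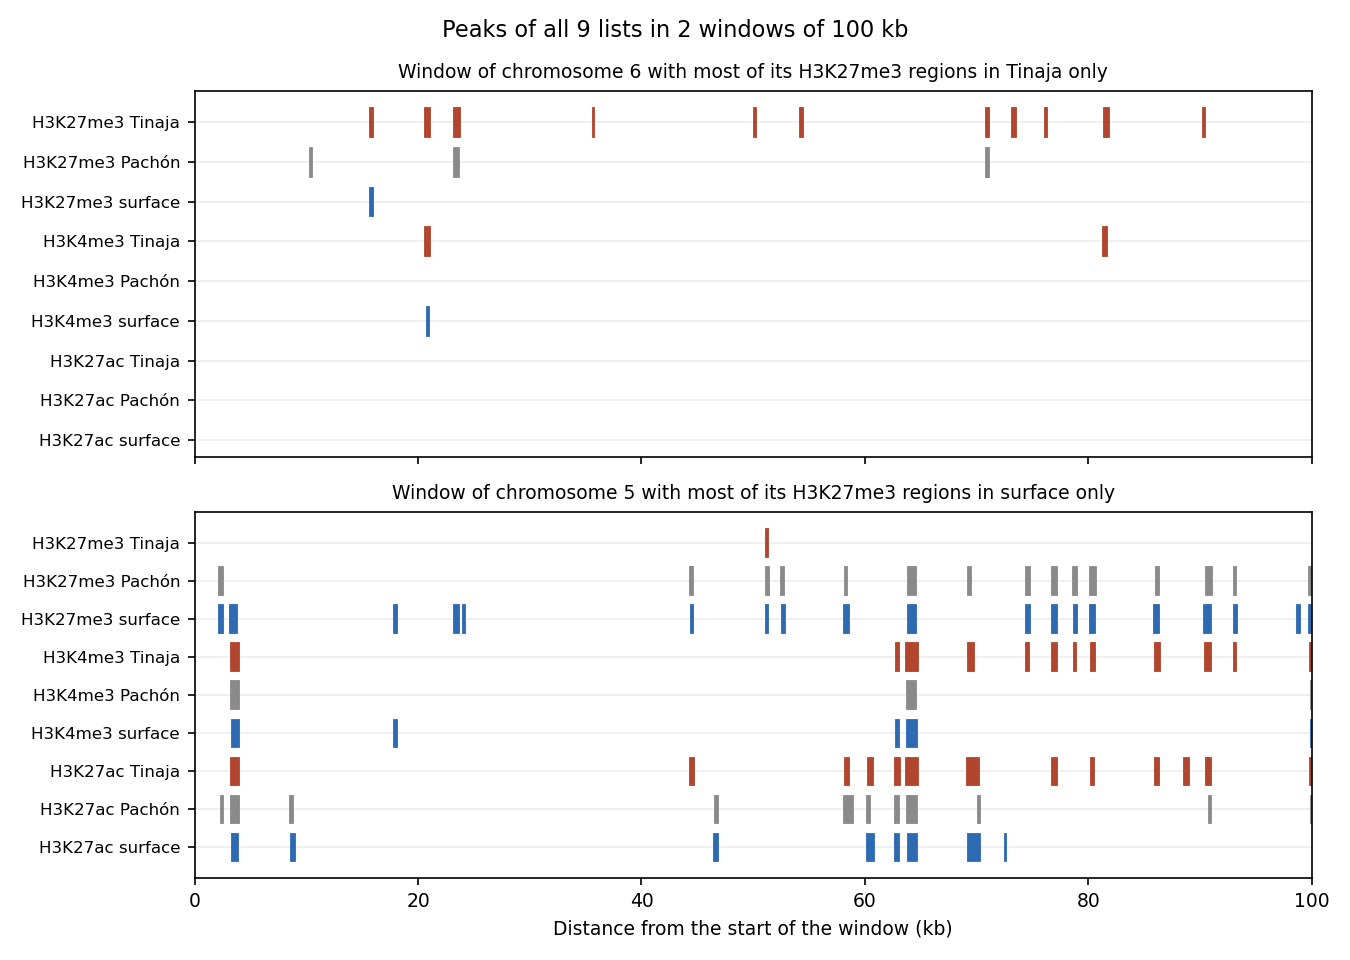
Peaks of all 9 deposited lists, drawn to scale against distance in kb from the start of the window, in the 100 kb windows with the highest share of Tinaja only regions (chromosome 6, top) and of surface only regions (chromosome 5, bottom). In the lower window Tinaja H3K4me3 peaks stand at 10 of the 18 places where H3K27me3 is listed in surface and not in Tinaja. Over all surface only regions the Tinaja H3K4me3 share is 28.7%.

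The longest stretches lie outside the rule for naming places and were chosen after their values were seen. On chromosome 14, between 33885832 and 33961105, 13 Tinaja only regions followed each other, of which Tinaja H3K4me3 met 2, Tinaja H3K27ac met 2 and surface active marks met none. Over all Tinaja only regions, Tinaja H3K4me3 stood at 31.99% and Tinaja H3K27ac at 15.8%, and 92.3% had neither surface active mark. Stretches of 11 Tinaja only regions on chromosome 6 and of 10 on chromosome 5 each had Tinaja H3K4me3 at 2 regions. On chromosome 18, between 16011250 and 16118011, 20 surface only regions followed each other, of which Tinaja H3K4me3 met 15, surface H3K4me3 met 4 and Pachón H3K27me3 met 2. On chromosome 4, between 6359968 and 6398759, 16 surface only regions followed each other, and Tinaja H3K4me3 met 8, surface H3K4me3 met none and Pachón H3K27me3 met 7. The shares over all surface only regions were 28.7% for Tinaja H3K4me3, 12.8% for surface H3K4me3 and 37.1% for Pachón H3K27me3. The longest stretch of regions of both, 31 on chromosome 3 between 53610333 and 53643140, had a Pachón H3K27me3 peak at all 31, with H3K4me3 of Tinaja at 29, of Pachón at 29 and of surface at 14. Among all regions of both, Pachón H3K27me3 stood at 82.1%, and H3K4me3 at 61.8% for Tinaja, 31.4% for Pachón and 21.8% for surface.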

How the data were processed

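Per the labels, livers were profiled by chromatin immunoprecipitation with single-read sequencing. The tools listed in the submitters' processing notes are MACS2, Bowtie2, SAMtools and bcl2fastq 2.20; settings and build are not given there. The authors deposited 9 peak lists, 1 per morph and mark, which pool 2 or 3 libraries; peak positions are in bp, and the deposited score is 0 throughout, so width stood in for strength. Intervals were counted in Python 3.11.15 with NumPy 2.4.6, SciPy 1.17.1 and Matplotlib 3.10.9. Overlap meant 1 bp or more. The arithmetic was tested on 200 simulated pairs of lists against base by base counting, with 0 mismatches. No peak was left out. Differences and odds ratios have normal 95% intervals; those of medians are from order statistics.

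Regions were named by rule: the 4 widest placed regions per class, the 4 with the largest excess of length for each morph, and the 3 windows per class, of at least 8 regions, with the highest share. The regions, rules and alternatives were chosen with earlier results of these data known. The gene table at hand, AstMex3_surface, was not used for position: on 25 of 25 chromosomes the end of the last peak and that of the last gene differed by over 1 Mb. No sequence or gene is therefore printed. Alternatives were the wider 50% of lists, lists of equal length, overlap of 50% of the shorter peak, joining up to 1 kb, placed chromosomes, 1 kb windows and outer spans. Equal lists of active marks, weighting by width and a 5 kb distance were added after the data were seen.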

Additional observations from a re-analysis of the deposited data

How the results depend on the processing

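No paired analysis was possible because the libraries of a morph were pooled into 1 list, and for the same reason no library could be left out. Of 81 recomputed values, 51 stayed within the interval of the value reported or within 1.5 times the count, 29 moved without a reversal and 1 reversed. The 29 include counts of regions, which have no direction. Those that stayed include the surface H3K4me3 and surface H3K27ac differences with active lists of equal length. These could not change, because the surface lists were kept whole. Keeping the wider 50% of each H3K27me3 list left 16056 Tinaja only, 14846 surface only and 32871 shared regions, and 1 kb windows gave 96695 shared windows.

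The Tinaja only minus surface only differences, in percentage points, are given here where they moved. For Tinaja H3K4me3 the difference was 6.43 with the wider 50%, 1.54 with joining up to 1 kb, 1.30 on placed chromosomes, 2.50 in 1 kb windows, 1.60 beyond 5 kb from the other list, and -0.60 with H3K4me3 lists of equal length, where the sign reversed. That alternative keeps the widest 56323 Tinaja peaks and the whole surface list. For surface H3K4me3 it was -13.2 with the wider 50%, -8.54 in 1 kb windows and -9.57 beyond 5 kb. For Tinaja H3K27ac it was -1.77 with the wider 50%, -3.22 with joining, -3.26 on placed chromosomes, -3.15 in windows and -4.15 beyond 5 kb. For surface H3K27ac it was -5.47 with the wider 50%, -4.81 with joining, -4.64 in windows and -5.33 beyond 5 kb. For Pachón H3K27me3 it was 8.72 with the wider 50%.

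The odds ratio for H3K4me3 was 10.8 with the wider 50% and 4.92 with equal H3K4me3 lists. That for H3K27ac was 3.23 on placed chromosomes, 3.12 in windows and 2.53 with equal H3K27ac lists. The median log2 extent was 0.017 by outer span and 0.025 with joining. Other causes were not tested. Depth is unknown, and the lists cannot show marks below the authors' threshold.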
